A study of Mus musculus with 8 samples.

Results

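A microRNA (miRNA) is cut out of a longer transcript in steps. In the nucleus the Microprocessor, made of the RNase III enzyme Drosha and its RNA-binding partner Dgcr8, releases a hairpin from the primary transcript. Exportin 5 (Xpo5) carries the hairpin to the cytoplasm with Ran-GTP, where Dicer1, assisted by the double-stranded RNA binding proteins Tarbp2 and Prkra, trims it to a duplex that is loaded into an Argonaute protein. Of the mouse Argonautes, Ago2 is the one known for efficient slicing of targets, and Ago1, Ago3 and Ago4 also bind miRNAs. The 9 genes Drosha, Dgcr8, Xpo5, Dicer1, Tarbp2, Prkra, Ago1, Ago3 and Ago4 were chosen by name for their place in this pathway, out of 55487 genes in the count table, by a rule that sets no threshold on a value and with earlier results of these data known. All 9 passed the filter on low counts, with 14228 genes in all. The question was whether the transcripts of this machinery differed between LLC cells with and without an intact Ago2 gene.

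LLC is the mouse Lewis Lung Carcinoma line, grown here in DMEM with 10% ESC FBS and sampled as 4 wild-type and 4 ΔAgo2 libraries, all given the same batch in the labels. According to the methods, ΔAgo2 cells were made with CRISPR-Cas9, 1 guide, puromycin selection and sorting of single cells. Which clone was grown for these libraries is not given in the sources used here. Wild-type cells are described by their genotype alone, so a difference between the genotypes and a difference between a clone and its parent line cannot be told apart. The labels call the samples biological replicates without saying whether they came from separate cultures, so p-values measure the spread between these libraries, which may be technical.

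Libraries held 39628101 to 68530912 counts. Counts of Ago2 itself were 15049, 19033, 34965 and 3842 in wild-type replicates 1 to 4 and 23871, 12319, 16662 and 16715 in ΔAgo2 replicates 1 to 4, so the level of the targeted transcript does not check the labels. A count over the whole gene does not separate an edited transcript from an intact one. Wild-type replicate 4 stood apart. Its Spearman correlation with its group was 0.864 (median), its mitochondrial share was 0.540%, where the other libraries had 2.39% to 4.51%, and its deviation followed GC content with a rho of 0.72 across genes, which are not independent replicates. Results are therefore given also without it, except where a value of single libraries is printed and replicate 4 can be read from it. The 4 markers of lung epithelium examined (Nkx2-1, Sftpc, Sftpb, Scgb1a1) were at or under 3 counts in every library, as were 4 of 5 leukocyte markers, Cd68 being the exception at 12.8 to 94.6 TPM. Of the epithelial markers, Epcam was at or under 1 count and Cdh1 at 1 to 9 counts, whereas the keratins Krt8 (66.8 to 741 TPM) and Krt18 (179 to 928 TPM) were abundant and Krt19 was at 0.27 to 4.7 TPM. The mesenchymal markers Vim and Fn1 were abundant as well, Cdh2 was at 2.21 to 12.3 TPM and Zeb1 at 3.72 to 31.2 TPM. Of the fibroblast markers, Pdgfra was at 2.66 to 28.9 TPM, Dcn at 0.19 to 4.73, Col1a1 at 0.38 to 1.47 and Col1a2 at 0 to 0.2 TPM. The endothelial markers (Pecam1, Cdh5, Kdr) were at or under 0.57 TPM.

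Dgcr8 carries miRNA hairpins within its own exons. Drosha shares 72 of its 5935 exon bases with Gm47288, annotated as a miRNA on the same strand and listed at 0 counts. Dgcr8 is known as a substrate of the Microprocessor it belongs to, which cuts hairpins in the 5′ part of its messenger RNA. The hairpin of Mir1306 lies in the coding sequence of Dgcr8, on the same strand, at chr16:18284239-18284317 (GRCm38, minus strand). It is shown because a count on Dgcr8 is a count on the substrate as well as on the enzyme partner. Its RefSeq sequence, with both mature arms in capitals, is:
Mir1306 hairpin: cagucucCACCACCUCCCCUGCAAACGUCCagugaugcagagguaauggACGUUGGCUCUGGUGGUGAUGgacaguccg
A second hairpin, annotated as Gm24572, lies in an untranslated exon at chr16:18284550-18284637. Its arms are given here with the seed, bases 2 to 8, in capitals:
mmu-miR-3618-5p: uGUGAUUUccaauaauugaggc
mmu-miR-3618-3p: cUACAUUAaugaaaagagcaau
Both hairpin genes of Dgcr8 were listed at 0 counts in all 8 libraries. Libraries of messenger RNA do not measure mature miRNAs, so these are no levels of miR-1306 or miR-3618. Xpo5 also holds a hairpin, Mir693, in an intron at chr17:46231531-46231619 (plus strand), which had at most 1 count.

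The let-7 and miR-103 families are known to target Dicer1, and their seeds were searched in the members' own transcripts for that reason. The mature sequences, with the seed in capitals, are:
mmu-let-7a-5p: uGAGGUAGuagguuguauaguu
mmu-miR-103-3p: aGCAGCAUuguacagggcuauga
The letters complementary to these seeds are CTACCTC for let-7 and ATGCTGC for miR-103. They were looked for on the sense strand of 1 annotated 3′ UTR per gene, that of the transcript with the longest coding sequence, and no 2 matches overlapped. The miR-103 letters were in the 3′ UTR of 6 of 9 members (Dgcr8, Dicer1, Tarbp2, Ago1, Ago3 and Ago4), and in 11.4% of 12062 UTRs of tested genes. The let-7 letters were in 2 of 9 (Tarbp2 and Ago3), against 9.36% of UTRs. The 3′ UTR of Dicer1 held no let-7 letters, and coding sequence was not searched. The members' UTRs were of very unequal length, from 168 bases in Drosha to 12742 in Ago3, with a median of 965 over tested genes. Among UTRs of 0.8 to 1.3 times the same length, the miR-103 letters were in 28.4% for Dicer1, 30.1% for Ago1, 27.9% for Ago4, 11.6% for Dgcr8 and 75.0% for Ago3. The let-7 letters were in 54.2% of the UTRs of like length for Ago3. For Tarbp2, whose 3′ UTR has 334 bases, the share was 3.63% for the letters of either family, and it held both. The sites of the enzyme Dicer1 and of its partner Tarbp2 read as follows, with the match in capitals, at positions counted from the first base after the stop codon:
Dicer1, miR-103 letters, position 1417: tgcttcatgtaATGCTGCacttagg
Tarbp2, miR-103 letters, position 242: gtcctgaataaATGCTGCtctttgg
Tarbp2, let-7 letters, position 102: aggtgccatctCTACCTCtgacaca
The Dicer1 match is followed by an A, a base that often accompanies functional seed matches, and the Tarbp2 matches are not. A match is a description of these letters, and no binding was measured.

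None of the 9 transcripts passed the test between the genotypes. With edgeR's quasi-likelihood test (two-sided, Benjamini-Hochberg adjustment over 14228 genes), 0 of 9 members had an adjusted p under 0.05, against 0.295% of all tested genes. At an unadjusted p under 0.05 the count was also 0 of 9, against 7.34% of all tested genes. DESeq2 called 0 of 9 at an adjusted p under 0.05, against 2.23% of the genes it tested, and 0 of 9 at an unadjusted p under 0.05, against 9.72%. Without wild-type replicate 4, edgeR called 0 of 9, against 0.777%, and 0 of 9 at an unadjusted p under 0.05, against 12.6%. limma-voom called 0 of 9, against 0.337%, and 0 of 9 at an unadjusted p under 0.05, against 6.7%. At these background shares, a count of 0 among 9 genes lies near the background. CPM, counts scaled to the library size with TMM factors, overlapped between the genotypes for all 9 members, also without wild-type replicate 4, while 6.07% of tested genes did not overlap, and 12.1% without that library. For 6 members, Drosha, Dgcr8, Xpo5, Prkra, Ago3 and Ago4, every ΔAgo2 value lay inside the wild-type range. Once wild-type replicate 4 was dropped, this no longer held for Xpo5 and Ago3. ΔAgo2 replicate 4 then lay above the range for Xpo5 (179.8 against at most 177.5 CPM) and below it for Ago3 (24.8 against at least 27.7 CPM). The share of all tested genes lying inside was not counted. With all 8 libraries, the SD of log2 CPM was larger in wild-type than in ΔAgo2 cells for 93.3% of them. Log2 fold changes of ΔAgo2 over wild-type were above 0 for 6 members and below 0 for 3, with a median of 0.11. Without wild-type replicate 4, Prkra and Ago3 also fell below 0. The median was then -0.010 for the members and -0.037 over all tested genes. With all 8 libraries, 41.2% of all tested genes were above 0 and their median was -0.11. That median became -0.0077 when libraries were scaled by their totals alone. The members' values rose as well under that scaling, and only Tarbp2 (-0.49) was below 0. Absence of a call does not show equal levels, and the 95% intervals below say what the 8 libraries leave possible.

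**Figure D1:**
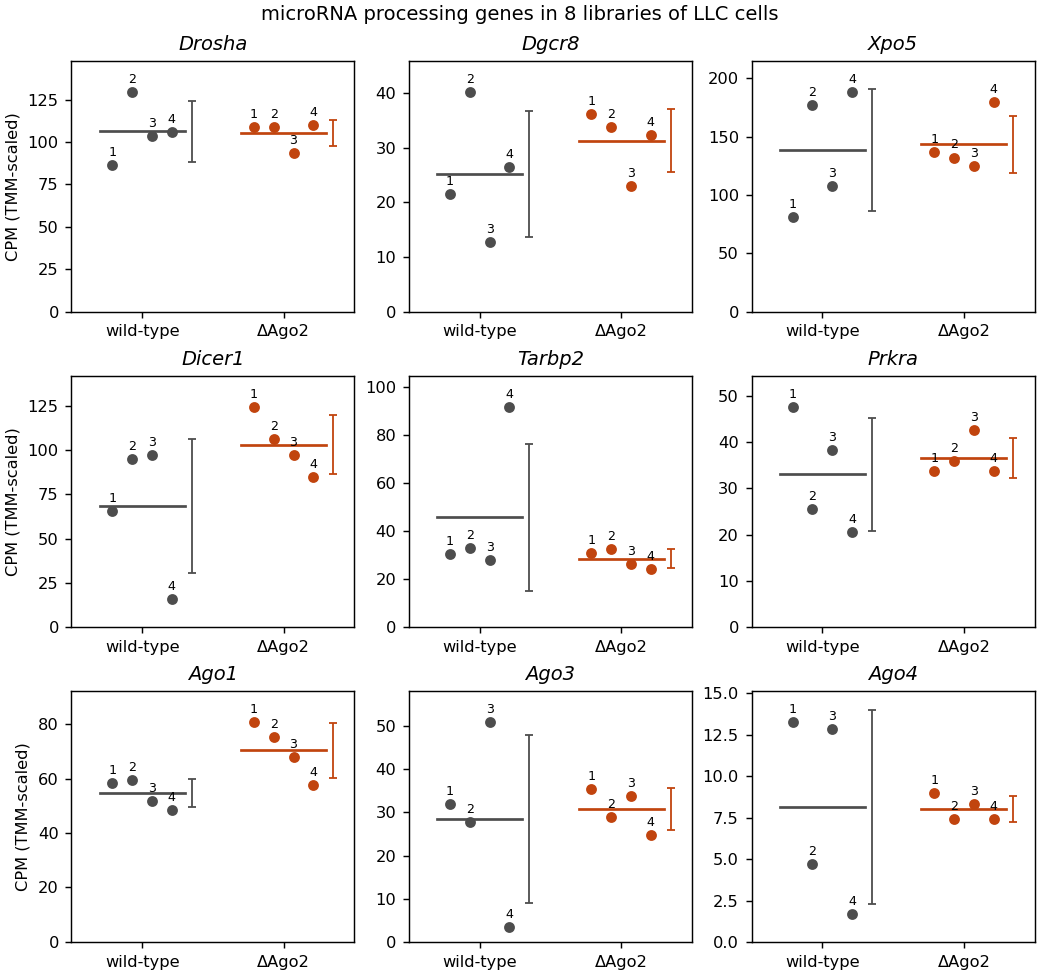
CPM (counts scaled to library size with TMM factors, linear axis from 0) of each of the 9 genes in 4 wild-type (grey) and 4 ΔAgo2 (orange) libraries, numbered by replicate, with the mean as a line and the SD as a bar. Wild-type replicate 4 is the lowest of 8 for 5 genes and the highest for 2, and the genotypes overlap in every panel.

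Drosha (ENSMUSG00000022191.16, chromosome 15, 12824815 to 12935291, plus strand), the catalytic subunit of the Microprocessor, was at 86.3, 129.5, 103.4 and 106.0 CPM in wild-type replicates 1 to 4 and at 108.6, 108.9, 93.7 and 110.1 CPM in ΔAgo2 replicates 1 to 4. The ΔAgo2 values sit in the middle of the wild-type values, and 3 of them lie between 108.6 and 110.1 CPM. The log2 fold change was -0.013 (SE 0.23, 95% interval -0.53 to 0.51, adjusted p = 0.993, edgeR) and -0.010 without wild-type replicate 4. Drosha was among the steadiest members, and its SD of log2 CPM in wild-type cells (0.24) was larger than that of only 4.77% of tested genes.

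Dgcr8 (ENSMUSG00000022718.12, chromosome 16, 18253948 to 18289246, minus strand), the double-stranded RNA binding subunit, was at 21.5, 40.2, 12.7 and 26.5 CPM in wild-type and at 36.1, 33.8, 23.1 and 32.3 CPM in ΔAgo2 libraries. Wild-type replicates 2 and 3 bracket all the others, and the spread within wild-type cells exceeds the difference in means. Its log2 fold change was 0.31 (SE 0.35, 95% interval -0.48 to 1.10, adjusted p = 0.840, edgeR). It was 0.34 without wild-type replicate 4 and 0.20 with a GC correction of all libraries, and it depended more on other libraries, with 0.093 when wild-type replicate 3 and 0.62 when wild-type replicate 2 was left out. The ratio of Drosha to Dgcr8 on TPM, which is scaled per length, was 10.5 in wild-type replicate 3, where the remaining wild-type libraries had 4.18 to 5.21 and ΔAgo2 libraries 3.91 to 5.27. Wild-type replicate 3 thus had the lowest Dgcr8 of all libraries with an ordinary Drosha. Trmt2a, a gene of the opposite strand, shares 825 of the 7696 exon bases of Dgcr8 and had 1468 to 4531 counts, and Gm49776, on the same strand as Dgcr8, shares 327 and was listed at 0. The strand setting of the counting is not given in the sources used here, so reads of the shared stretch could have gone to either gene or been dropped.

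Xpo5 (ENSMUSG00000067150.6, chromosome 17, 46202782 to 46243598, plus strand), the export receptor of hairpins, was at 81.6, 177, 108 and 188 CPM in wild-type and at 137, 132, 125 and 179.8 CPM in ΔAgo2 libraries. Wild-type libraries fall into a lower and a higher pair, and the ΔAgo2 values lie between the ends of that range. On the log2 scale the fold change was 0.048 (SE 0.32, 95% interval -0.66 to 0.75, adjusted p = 0.978, edgeR) and 0.23 without wild-type replicate 4. Its direction turned when wild-type replicate 1 (-0.13), wild-type replicate 3 (-0.053) or ΔAgo2 replicate 4 (-0.075) was left out.

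Dicer1 (ENSMUSG00000041415.10, chromosome 12, 104687742 to 104751952, minus strand), the RNase III enzyme that makes the duplex, was at 65.8, 94.9, 97.5 and 15.6 CPM in wild-type and at 124.6, 106.2, 97.1 and 84.7 CPM in ΔAgo2 libraries. Wild-type replicate 4 was 5.53 times lower than the mean of the other 3 wild-type libraries, and 2 ΔAgo2 libraries lay above every wild-type one. The log2 fold change was 0.59 (SE 0.47, 95% interval -0.46 to 1.64, adjusted p = 0.778, edgeR), the largest positive value of the members. Without wild-type replicate 4 it was 0.27 (SE 0.20, 95% interval -0.19 to 0.72, adjusted p = 0.618), and with the GC correction 0.55.

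Tarbp2 (ENSMUSG00000023051.11, chromosome 15, 102518192 to 102523676, plus strand), a partner of Dicer1 known in mammals also as TRBP, was at 30.2, 32.8, 27.7 and 91.6 CPM in wild-type and at 30.9, 32.6, 26.0 and 24.3 CPM in ΔAgo2 libraries. Apart from wild-type replicate 4, which was 3.03 times the mean of the other 3 wild-type libraries, the 7 values lie between 24.3 and 32.8 CPM. Its log2 fold change was -0.68 (SE 0.40, 95% interval -1.57 to 0.21, adjusted p = 0.738, edgeR), the lowest of the members. It was -0.082 without wild-type replicate 4 (SE 0.17, 95% interval -0.46 to 0.30) and -0.32 with the GC correction. Tarbp2 had the highest GC content of the members, 54.1%, against a median of 49.6% over tested genes.

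Prkra (ENSMUSG00000002731.6, chromosome 2, 76629898 to 76648015, minus strand), the other partner of Dicer1 and an activator of the kinase PKR, was at 47.6, 25.5, 38.3 and 20.6 CPM in wild-type and at 33.7, 36.0, 42.7 and 33.7 CPM in ΔAgo2 libraries. Every ΔAgo2 value lies inside the wild-type range. With all libraries its log2 fold change was 0.15 (SE 0.31, 95% interval -0.53 to 0.82, adjusted p = 0.918, edgeR), and it was -0.011 without wild-type replicate 4 and 0.050 with the GC correction. The balance of the partners also turned on that library. Tarbp2 over Dicer1 on TPM was 21.7 in wild-type replicate 4, where wild-type replicates 1 to 3 had 1.05 to 1.69 and ΔAgo2 libraries 0.913 to 1.13. Prkra over Tarbp2 was 0.506 there, against 1.75 to 3.54 and 2.45 to 3.69.

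Ago1 (ENSMUSG00000041530.16, chromosome 4, 126435012 to 126468583, minus strand), an Argonaute that binds guides with little slicing, was at 58.3, 59.6, 51.9 and 48.6 CPM in wild-type and at 80.8, 75.4, 67.8 and 57.7 CPM in ΔAgo2 libraries. It came nearest to separating the genotypes, with 3 of 4 ΔAgo2 libraries above every wild-type library and ΔAgo2 replicate 4 inside the wild-type range. With that library left out, Ago1 was the 1 member of 9 without overlap, against 8.22% of tested genes. edgeR gave a log2 fold change of 0.37 (SE 0.23, 95% interval -0.15 to 0.88, unadjusted p = 0.145, adjusted p = 0.740, edgeR). Without wild-type replicate 4 it was 0.32 (SE 0.16, 95% interval -0.039 to 0.68, unadjusted p = 0.0741, adjusted p = 0.451), where 12.6% of tested genes had an unadjusted p under 0.05. Over all 21 alternatives it stayed between 0.28 and 0.57 and passed the adjusted threshold in 0 of them. In wild-type cells it had the smallest spread of the members, an SD of log2 CPM of 0.14.

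Ago3 (ENSMUSG00000028842.15, chromosome 4, 126331704 to 126429556, minus strand) was at 31.9, 27.7, 50.9 and 3.45 CPM in wild-type and at 35.5, 28.9, 33.8 and 24.8 CPM in ΔAgo2 libraries. Ago4 (ENSMUSG00000042500.11, chromosome 4, 126489541 to 126533472, minus strand) was at 13.3, 4.70, 12.9 and 1.71 CPM in wild-type and at 9.02, 7.44, 8.33 and 7.40 CPM in ΔAgo2 libraries. Both had their lowest value in wild-type replicate 4. Ago3 was 10.7 times below the mean of the other wild-type libraries, and its GC content of 41.8% was the lowest of the members. Ago4, at 47.5% GC, was 6.03 times below. Dicer1, at 47.3% GC, was 5.53 times below in that library, and Prkra, at 47.6%, was 1.80 times below. Dgcr8, at 48.1%, was 1.07 times the mean of the others. A link to GC content was not tested for single genes. Ago3 had a log2 fold change of 0.11 (SE 0.59, 95% interval -1.19 to 1.41, adjusted p = 0.973, edgeR) and -0.25 without that library. For Ago4 it was -0.019 (SE 0.55, 95% interval -1.24 to 1.20, adjusted p = 0.995, edgeR) and -0.34 without it. These are the widest intervals of the 9 genes, and a change of 2-fold in either direction lies inside both. Without wild-type replicate 4, the interval of Ago3 narrowed to -0.79 to 0.28.

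**Figure D2:**
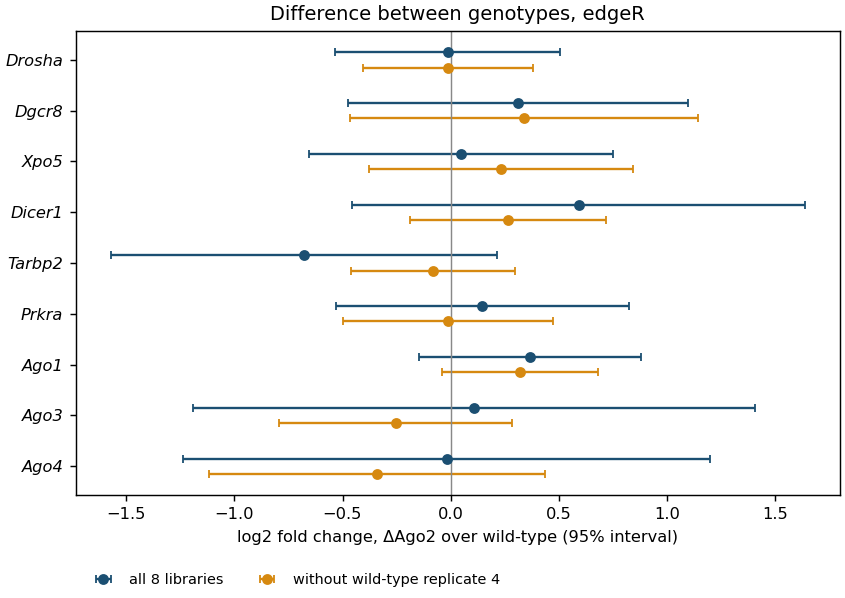
Log2 fold change of ΔAgo2 over wild-type cells (horizontal axis) with 95% intervals from edgeR for the 9 genes, with all 8 libraries (blue) and without wild-type replicate 4 (orange). Every interval spans 0, and the value of Tarbp2 goes from -0.68 to -0.082 and that of Dicer1 from 0.59 to 0.27 when the library is left out.

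The members were steadier among ΔAgo2 than among wild-type libraries, as were genes in general. The SD of log2 CPM was larger in wild-type cells for 8 of 9 members, Ago1 being the exception with 0.14 against 0.21, and for 93.3% of tested genes. Without wild-type replicate 4 it was larger for 7 of 9 members and 78.8% of tested genes. The median SD of the members was 0.69 in wild-type cells, 0.46 without replicate 4, and 0.21 in ΔAgo2 cells, where the medians of all tested genes were 0.78, 0.43 and 0.23.

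Levels were compared between genes on TPM. In ΔAgo2 cells Xpo5 (74.9 ± 13.1 TPM, SD, n = 4), Prkra (64.3 ± 5.23) and Drosha (63.6 ± 6.99) were the highest of the 9, below Ago2 (89.6 ± 14.1), and the ranges of these 4 overlap from neighbour to neighbour. Ago1 (31.1 ± 5.55), Tarbp2 (22.4 ± 3.89) and Dicer1 (22.1 ± 4.49) followed as a middle group with overlapping ranges. Dgcr8 (14.6 ± 3.22), Ago3 (6.65 ± 1.17) and Ago4 (4.15 ± 0.513) each lay below the range of the gene before. In wild-type cells the means ran from Xpo5 (63.2 ± 27.3) through Drosha (57.4 ± 20.5), Prkra (52.2 ± 22.0), Tarbp2 (28.6 ± 11.3), Ago1 (21.5 ± 6.34), Dicer1 (14.1 ± 9.09), Dgcr8 (10.6 ± 6.67) and Ago3 (5.87 ± 4.14) to Ago4 (3.86 ± 2.76), and the ranges of all neighbours overlap. Tarbp2 stood above Ago1 through replicate 4 alone, and without it the means were 23.2 ± 4.34 and 24.3 ± 3.87 TPM (SD, n = 3), so that order turned. In those 3 libraries the range of Ago1 lay below that of Prkra (62.1 ± 11.8), as in ΔAgo2 cells it lay below that of Drosha. In both genotypes the enzyme Drosha was thus above its partner Dgcr8 in each library, and Prkra was above Dicer1 in each. Measured against all tested genes by mean TPM over the 8 libraries, Xpo5 was higher than 81.9% and Ago4 higher than 26.9%.

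**Figure D3:**
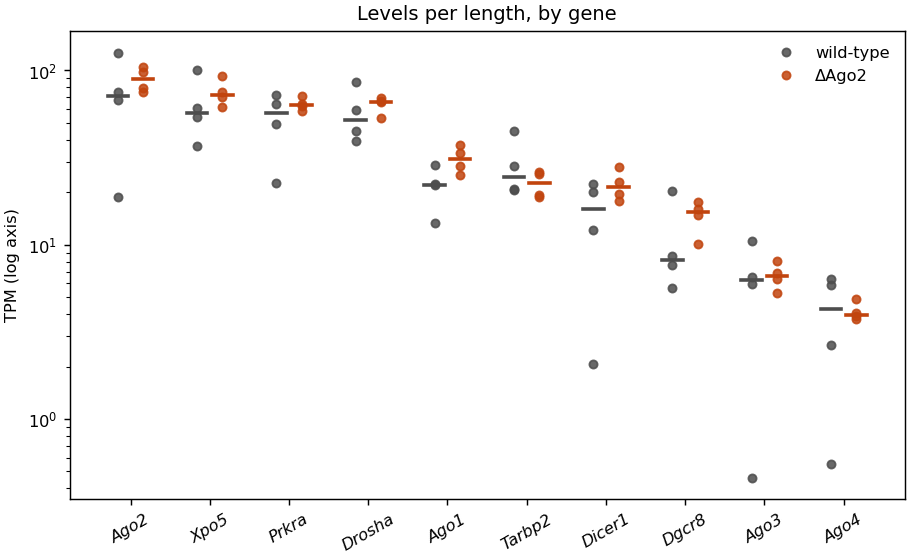
TPM (counts per length and library total, log axis) of the 9 genes and Ago2, ordered by the ΔAgo2 mean, with 1 point per library and a line at the median of 4 wild-type (grey) and 4 ΔAgo2 (orange) libraries. The ΔAgo2 points step down without overlap from Drosha to Ago1, from Dicer1 to Dgcr8, from Dgcr8 to Ago3 and from Ago3 to Ago4, and the low grey points of Ago3, Ago4 and Dicer1 are wild-type replicate 4.

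The make-up of the Argonaute transcripts overlapped between the genotypes with all 8 libraries, and for the Ago3 share this rested on wild-type replicate 4. Ago2 took 66.4%, 66.5%, 76.6% and 56.9% of the summed TPM of the 4 Argonautes in wild-type replicates 1 to 4, and 67.4%, 63.3%, 71.5% and 70.0% in ΔAgo2 replicates 1 to 4. The ΔAgo2 values lie inside the wild-type range. Ago1 was the largest of the other paralogs in each library, at 25.1% ± 11.2 in wild-type and 23.7% ± 3.31 in ΔAgo2 cells (SD, n = 4). Ago3 took 4.85% ± 2.32 and 5.04% ± 0.285, and Ago4 3.41% ± 1.84 and 3.17% ± 0.157. Without wild-type replicate 4 the wild-type means were 69.8% ± 5.85 for Ago2, 20.2% ± 6.26 for Ago1, 6.0% ± 0.307 for Ago3 and 4.00% ± 1.74 for Ago4 (SD, n = 3). Leaving it out turned the direction for Ago1, Ago2 and Ago3. The wild-type Ago3 share was then 5.79% to 6.36%, above the 4.65% to 5.28% of the ΔAgo2 libraries without overlap, and on CPM 7.67% to 8.02% stood above 6.12% to 7.14%. This is a description of 3 libraries against 4, with no test, and the Ago1, Ago2 and Ago4 shares still overlapped. These shares describe transcripts, among which those of the edited Ago2 gene are counted, and not Argonaute proteins. Summed TPM of Ago1, Ago3 and Ago4 was 34.0, 37.9, 38.8 and 14.3 in wild-type and 50.5, 43.9, 39.2 and 34.1 in ΔAgo2 libraries, and the genotypes overlap, also without replicate 4.

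**Figure D4:**
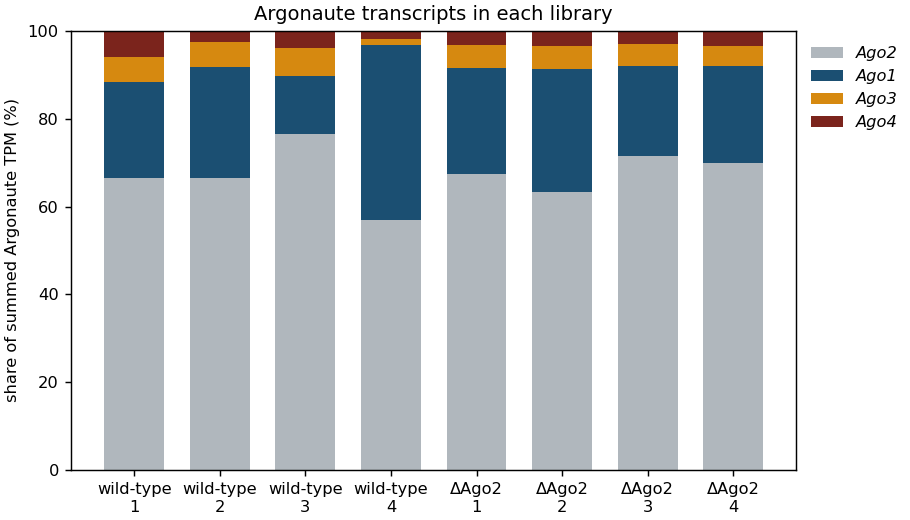
Share (percent, from 0 to 100) of the summed TPM of Ago1, Ago2, Ago3 and Ago4 taken by each, 1 bar per library. Ago2 takes 56.9% to 76.6% in wild-type and 63.3% to 71.5% in ΔAgo2 libraries, and the bar of wild-type replicate 4 has the largest share of Ago1 (40.1%) and the smallest of Ago3 (1.39%).

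Genes that act around the members were examined as 6 lists, of which 59 of 67 symbols passed the filter on low counts. None of the 59 had an adjusted p under 0.05 with edgeR (0.295% of all tested genes), DESeq2 (2.23%) or limma-voom (0.337%). DESeq2 gave no adjusted p for Dhx9, which is counted here as not called. At an unadjusted p under 0.05 there was 1 of 59 with edgeR (7.34% of all tested genes) and 1 with DESeq2 (9.72%). Without wild-type replicate 4, both Adarb1 and Lin28b had an unadjusted p under 0.05 with edgeR, as did 12.6% of tested genes. Of the 11 cofactors of the Microprocessor, such as the helicases Ddx5 and Ddx17, 7 had a log2 fold change above 0 and 4 below, with a median of 0.10. The most abundant, Hnrnpa1, an RNA-binding protein that aids the cutting of some primary transcripts, was at 707 TPM on average. The 10 tested genes of the Ran system and the exportins had 7 above 0 and 3 below, with a median of 0.12, led in level by Ran at 524 TPM. The median over all tested genes was -0.11, with 41.2% of them above 0, so both medians lie above it, and none of these genes was called. Without wild-type replicate 4 the medians were 0.11 for the cofactors and 0.11 for the Ran system and exportins, against -0.037 over all tested genes.

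Among 11 tested modifiers and regulators of hairpins, 6 were above 0 and 5 below, with a median of 0.024, and 0.055 without wild-type replicate 4. Adarb1, an adenosine deaminase that edits double-stranded RNA, was at 61.4, 24.5, 31.7 and 28.5 CPM in wild-type and at 10.9, 9.72, 21.1 and 20.0 CPM in ΔAgo2 libraries. All 4 ΔAgo2 values lie below all 4 wild-type values, as occurred in either direction for 6.07% of tested genes. Its log2 fold change was -1.24 (SE 0.39, unadjusted p = 0.010, adjusted p = 0.423, edgeR). It was -1.33 without wild-type replicate 4 (unadjusted p = 0.0065, adjusted p = 0.193, edgeR), so it did not pass the adjusted threshold. Adar, the other editing enzyme of the list, was at 42.2, 54.4, 40.6 and 60.4 CPM in wild-type and 45.1, 41.3, 54.0 and 48.7 CPM in ΔAgo2 libraries, with a log2 fold change of -0.063, which turned to 0.055 without wild-type replicate 4 and to 0.12 with the GC correction. The most abundant gene of this list was the helicase Dhx9, at 82.0 TPM. Lin28b, which blocks the maturation of let-7 and was singled out after its values were seen, was at 2.34, 3.24, 7.62 and 0.186 CPM in wild-type and 1.43, 1.26, 1.37 and 1.15 CPM in ΔAgo2 libraries, and Lin28a had at most 2 counts. The log2 fold change of Lin28b was -1.36 (adjusted p = 0.732, edgeR) and -1.75 without wild-type replicate 4 (unadjusted p = 0.0027, adjusted p = 0.135, edgeR). Without that library every ΔAgo2 value of Lin28b lay below every wild-type value, where 12.1% of tested genes did not overlap in either direction.

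Chaperones that load the Argonautes had 7 of 11 above 0 and a median of 0.034, which was 0.074 without wild-type replicate 4. The most abundant was Hsp90ab1 at 4752 TPM. Genes of guide and miRNA turnover had 6 of 10 above 0 and a median of 0.15, which was -0.047 without wild-type replicate 4. In that list Snd1, a nuclease, had the highest mean over 8 libraries, 195 TPM, which rested on wild-type replicate 4 (367 TPM), and over the other 7 libraries Xrn2, an exonuclease, was at 173.7 and Snd1 at 170.4 TPM. Of 13 host transcripts of miRNAs, 6 passed the filter, with 3 above 0 and 3 below. Their median was -0.093, and -0.39 without wild-type replicate 4. The host with the highest level was Mir142hg, at 16.6 to 63.9 TPM and at most 338 counts. These are levels of host RNA, not of mature miRNAs.

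**Figure D5:**
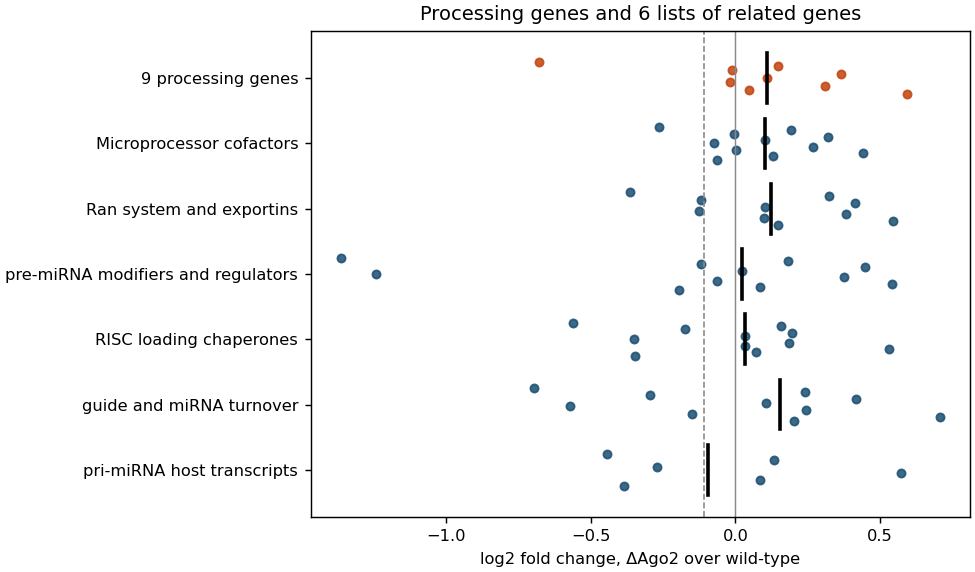
Log2 fold change of ΔAgo2 over wild-type cells (horizontal axis, edgeR) for the 9 genes (orange) and for the tested genes of 6 lists (blue), 1 point per gene, with black bars at the medians, a solid line at 0 and a dashed line at the median of all tested genes (-0.11). The points furthest to the left are Lin28b (-1.36) and Adarb1 (-1.24), and none of the genes drawn has an adjusted p under 0.05.

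Patterns over the 8 libraries were compared by the mean absolute difference in log2 CPM after each gene was centred on its own mean, a measure by which 0 is an identical pattern. The genes most like Drosha were Abhd10 (0.038), Cpsf7 (0.061) and Slc25a4 (0.063), against a median of 0.45 over tested genes. For Dgcr8 they were Aunip (0.089), Gm29100 (0.090) and Ppp4r1 (0.091), against a median of 0.61. For Dicer1 they were Prr14l (0.098), Tnrc6a (0.11) and Arhgap11a (0.11), against 0.73. No member was among the 3 genes nearest to any of these. Drosha and Dgcr8 differed by 0.29 and Drosha and Xpo5 by 0.23. Over the 7 libraries without wild-type replicate 4 these distances were 0.325 and 0.192. The medians over tested genes were then 0.321 around Drosha and 0.520 around Dgcr8. Measured around Drosha, Dgcr8 was thus no nearer than the median gene, whereas measured around Dgcr8, Drosha was nearer than the median gene. Dicer1 was nearer to Ago3 (0.33) and Ago4 (0.47) than to Tarbp2 (0.94), and this order rested on wild-type replicate 4, since over the other 7 libraries it was 0.31, 0.48 and 0.21. Of the 9 nearest genes named, only Abhd10 was among the nearest without that library. These distances rest on the same 8 libraries for every gene and are a description.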

How the data were processed

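RNA of 8 libraries was purified with NucleoSpin RNA, made into stranded mRNA libraries and sequenced in paired-end 100 bp mode. The authors aligned reads to ribosomal RNA and then to mm10 (STAR, per the submitters' processing notes) and counted them with featureCounts. They deposited raw counts for 55487 genes and TPM for the same libraries. The annotation release and strand setting are not given in the sources used here. Identifiers were matched without version to GENCODE M21 (GRCm38), and 93 were unmatched. Sequences are from RefSeq (GRCm38.p6) and, for 3′ UTR sites, GENCODE transcripts.

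Counts were filtered with filterByExpr, scaled with TMM and tested with edgeR 4.0.16 (R 4.3.3) on genotype alone, two-sided. SEs are the log2 fold change over the root of F. DESeq2 1.42.0, limma-voom 3.58.1, other filters and scalings, a GC correction, a replicate block, log2(TPM + 1), log2(TPM + 0.1) and leaving out each library were alternatives. Replicate numbers were not treated as pairs in the main test. ΔAgo2 replicates 1 and 2 were closest (chi-square per gene 22.9 against 89.7 to 126 for the other ΔAgo2 pairs and 365 to 1608 for wild-type pairs). That value is above sampling noise, which does not show that the 2 came from separate cultures. Both were counted.

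Named genes are the 9 members and Ago2, in each list the genes with an unadjusted p under 0.05 and the gene with the highest mean TPM, and the 3 genes nearest to Drosha, Dgcr8 and Dicer1. From the lists, Adar, Lin28a, Lin28b, Ddx5, Ddx17 and Xrn2 are named outside this rule, after their values were seen. Members, lists and rules were chosen with earlier results of these data known.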

Additional observations from a re-analysis of the deposited data

Results flagged for a closer look

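CPM of the 9 genes and of Ago2, the share of each Argonaute, the total counts and the mitochondrial share were examined for 1 library far from the other 3 in 32 groups of 4, of which chance flags about 1 in 20. Drosha in ΔAgo2 cells was flagged, since replicate 3, at 93.7 CPM, lay below the other libraries (108.6 to 110.1 CPM) by 0.916 of the range on the log2 scale. Tarbp2 in wild-type cells was flagged for replicate 4, at 91.6 CPM against 27.7 to 32.8 CPM, a gap of 0.86 of the range. The share of Ago3 among the Argonaute transcripts in wild-type cells was flagged for the same library, at 1.39% against 5.79% to 6.36%, a gap of 0.886 of the range.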

How the results depend on the processing

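Of all tested genes, 42 had an adjusted p under 0.05. The count was 399 with DESeq2, 257 with limma-voom and sample weights, 143 with no filter on low counts, 6 with CPM of at least 1 in 4 libraries, 69 with the GC correction and 15 with log2(TPM + 1). With the replicate block it was 18. The r of same-numbered libraries was -0.14, -0.049, 0.38 and 0.028, where pairs of unlike number ran from -0.36 to 0.46. These values cannot exclude a pairing. Leaving out 1 library gave 1 to 113: 12 without wild-type replicate 1, 78 without wild-type replicate 2, 113 without wild-type replicate 4, 1 without ΔAgo2 replicate 1 and 7 without each of ΔAgo2 replicates 2, 3 and 4. The cause was not tested.

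The count of members called was 0 under all 21 alternatives, with a lowest adjusted p of 0.264 (Dicer1, limma-voom with sample weights), and the block changed no member's call. Members whose genotypes do not overlap numbered 0 to 1 over the libraries left out, the 1 being Ago1 without ΔAgo2 replicate 4, where 8.22% of tested genes did not overlap. On CPM, Ago2 took 75.0% of the Argonaute sum in wild-type and 76.2% in ΔAgo2 cells, where Ago1 took 15.4%, Ago3 6.67% and Ago4 1.76%. Leaving out libraries of the shares was chosen after seeing the data.

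Log2 fold changes near 0 turned direction in 27 of 210 alternatives over the 9 genes and Ago2, those of Dgcr8, Dicer1, Tarbp2 and Ago1 in none. Drosha was at 0.14 with sample weights, 0.079 with library size alone, 0.018 with no filter, 0.076 with the GC correction, 0.11 with the replicate block and GC correction, 0.20 with log2(TPM + 1) and 0.21 with log2(TPM + 0.1). Ago4 was at 0.34 with limma-voom, 0.044 with library size alone, 0.36 with the replicate block, 0.23 with the replicate block and GC correction, 0.32 with log2(TPM + 1) and 0.55 with log2(TPM + 0.1). With sample weights, Prkra was at -0.16 and Ago3 at -0.024. Over the libraries left out, Dgcr8 ran from 0.093 to 0.62, Dicer1 from 0.27 to 0.81, Tarbp2 from -0.85 to -0.082 and Ago1 from 0.28 to 0.45, and of those that turned, Drosha ran from -0.098 to 0.081, Xpo5 from -0.13 to 0.23, Prkra from -0.011 to 0.38, Ago3 from -0.25 to 0.55, Ago4 from -0.34 to 0.32 and Ago2 from -0.047 to 0.60. The cause was not tested.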
